A study of Mus musculus with 2 samples.

Results

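Keratins are the proteins of the intermediate filaments of epithelial cells, and each filament is built from pairs of a type I with a type II keratin. Which pair a cell makes depends on its kind and state. *Krt6a* (type II), *Krt16* and *Krt17* (both type I) are known as stress keratins, which the epidermis makes after injury. *Krt8* (type II) pairs with *Krt18* or *Krt19* (type I) in simple epithelia, *Krt4* (type II) pairs with *Krt13* (type I) in moist stratified epithelia such as the conjunctiva, and the healthy corneal epithelium mainly uses *Krt12* with *Krt5*. The genes described here are these 8 together with *Krt78* (type II) and *Krt23* (type I), 10 of the 20198 genes in the count table. They were taken by name, as the stress, simple and conjunctival keratins and 2 less studied ones. On the GRCm38 build the type I genes *Krt23* (chr11:99477974-99493137), *Krt13* (chr11:100117327-100121566), *Krt19* (chr11:100140810-100148665), *Krt16* (chr11:100246091-100248902) and *Krt17* (chr11:100256217-100261029) lie in one cluster of genes on the minus strand. The type II genes *Krt6a* (chr15:101689910-101694307), *Krt4* (chr15:101918535-101924735), *Krt78* (chr15:101946001-101954287) and *Krt8* (chr15:101996698-102004482) lie on the minus strand of chromosome 15, beside the type I gene *Krt18* (chr15:102028180-102032027) on the plus strand, with 23697 bases between *Krt8* and *Krt18*.

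The cells came from corneas of male mice aged 6 to 8 weeks and were sequenced from the 3' end of the RNA in droplets, each molecule counted by a unique molecular identifier (UMI). The UW library pooled 8 corneas of 4 unwounded mice, and the W library 8 corneas of 4 mice taken 24 h after the central epithelium had been scraped off with a rust ring remover, the stroma being left in place. The epithelial sheet and the rest of the cornea were digested apart and then combined. The strain is not given in the sources used here. Since there was 1 library for each condition, no test between W and UW was possible, and the intervals below cover counting error only, not the spread between mice. As deposited, the UW library held 16450 cells and 367166822 UMIs, with a median of 22014 UMIs for each cell. The W library held 12417 cells and 289586482 UMIs, with a median of 20290. The paper reports more cells than this for each condition after its filters, so a part of its cells is missing here. The 2 libraries share 52 cell barcodes. The study told the mice apart by genotype with the Souporcell tool, and such an assignment of cells to mice was not used here.

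The authors' 17 clusters were used as deposited, and their numbering has a gap. The comparisons below are made in 10 clusters with at least 50 cells in both libraries. These are the ones in which the list of corneal epithelium markers had the highest summed level of any cell type list. They comprised 13501 cells in UW, at a median of 23669 UMIs each, and 8507 in W, at 25553. Lists of layer markers scored highest for basal cells in cluster 3 (leading genes *Ppbp* and *Col17a1*), for mitosis in cluster 8 (*Top2a*, *Ube2c* and *Mki67*) and for S phase in clusters 11 (*Mcm3*, *Mcm6* and *Dut*) and 9 (*Wfdc18*, *Sox4* and *Lgals7*), where the quiescent limbal and basal lists were also above the average cluster. The suprabasal list led in clusters 1 (*Pygl* and *Dapl1*) and 4 (*Dsg1a*, *Muc15* and *Clip4*), and the superficial list in clusters 2 (*Ly6g6c*, *Spink5* and *Ttc36*), 6 (*Psca*, *Asprv1* and *Bcas1*) and 7 (*Lce3a*, *AA467197* and *Chac1*). Cluster 5 (*Serpinb3a*, *Cyp2a5* and *Alox12e*) scored near the average for each layer list, the highest being 0.35 on the log2 scale, so it was left unnamed. Its corneal epithelium markers summed to 16845 CPM (counts per 1000000 UMIs of the same cells) and its goblet cell markers to 69.1 CPM. However, relative to the average cluster its epidermis (1.26) and goblet cell (1.10) lists scored above the epithelium list (0.95). Of the 3 goblet cell markers, 1 made up 69.0 CPM of that sum and 1 had no UMI, so that score came from 1 gene. In cluster 7 the epithelium list summed to 7295 CPM, against 412 CPM or less for any list of another cell type, but its score was below that of the average cluster. The sum alone does not set epithelium apart, since the epithelium list also led by it in clusters 14 (12421 CPM) and 16 (5840 CPM). Relative to the average cluster, monocyte lineage and T cell lists led there, and both clusters were left out because each had 7 UW cells. The largest stromal cluster, cluster 0 (*Kera*, *A2m* and *Angptl7*), makes no keratin filaments and was used to see how much keratin RNA was free in the suspension.

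Summed over the 10 epithelial clusters, 4 of the 10 keratins were higher in W by a log2 ratio of at least 1, 2 were lower by as much, and 4 lay between. The same limits took 21.8% of the 16439 genes compared as higher and 8.77% as lower, and the median log2 ratio was 0.62 over the keratins and 0.22 over all genes. With the cells as sampled, *Krt18* had the largest ratio, from 2.58 CPM in UW (95% Poisson interval 2.41 to 2.76) to 44.1 CPM in W (43.3 to 45.0). *Krt17* stood at 119 CPM in UW and 930 CPM in W, a log2 ratio of 2.97. *Krt16* stood at 726 CPM in UW and 4700 CPM in W, a log2 ratio of 2.69. *Krt19* had the smallest ratio of the 4 higher genes, with 194 CPM in UW and 468 CPM in W. *Krt78* was the lowest of the keratins by ratio, with 108 CPM in UW and 14.3 CPM in W, a log2 ratio of -2.91. *Krt23* stood at 49.1 CPM in UW and 23.1 CPM in W, a log2 ratio of -1.08, which was -0.19 with the UW cluster shares in both libraries. The other 4 had log2 ratios of 0.90 (*Krt4*), 0.34 (*Krt6a*), 0.34 (*Krt13*) and 0.16 (*Krt8*). The intervals of the libraries did not overlap for any of the 10 genes, at the 859 to 1257405 UMIs each gene had in a library. Levels are CPM of 3' tags, and those of different genes were not compared.

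**Figure D1:**
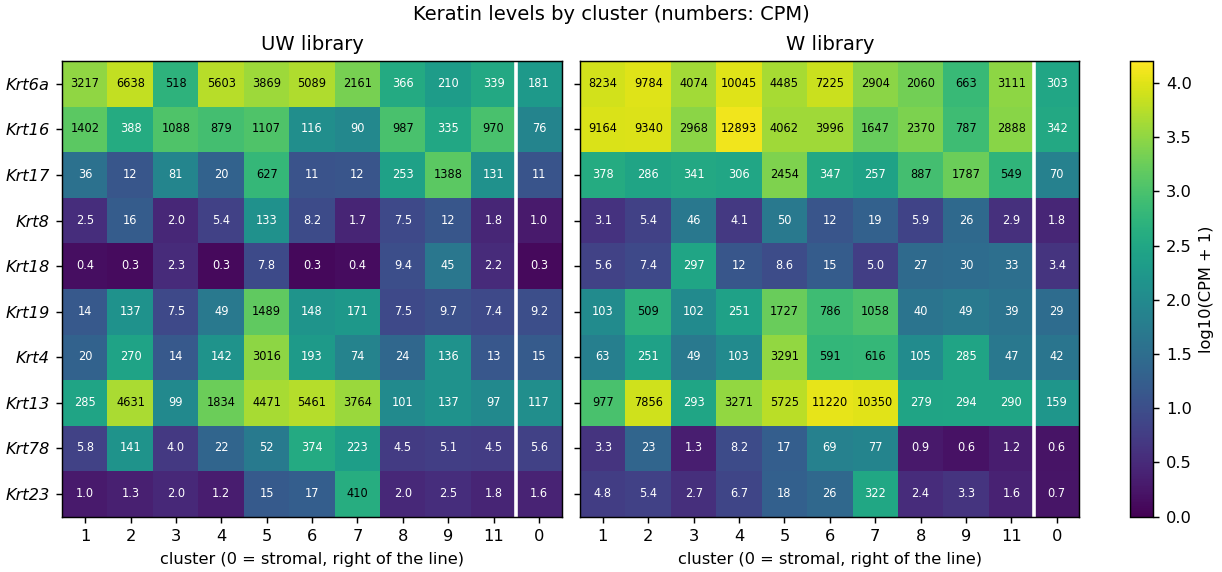
Levels of the 10 keratins (rows) in the UW library (left) and the W library (right), in the 10 epithelial clusters and in stromal cluster 0 to the right of the white line. Numbers are CPM of the summed counts and colours log10(CPM + 1), 1 library for each condition: *Krt18* stands out in cluster 3 of W at 297 CPM, *Krt4* in cluster 5 of both libraries at 3016 and 3291 CPM, and *Krt23* in cluster 7 at 410 and 322 CPM.

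Cluster by cluster, 61 of the 100 ratios of a keratin in a cluster were higher in W and 11 were lower. In the suprabasal clusters 8 of 10 keratins were higher and 0 lower in cluster 1 (14.7% and 11% of all genes), and 5 were higher and 1 lower in cluster 4 (13.8% and 13.5%). Of the clusters led by the superficial list, cluster 2 had 5 higher and 2 lower (13.2% and 13.1%), cluster 6 had 6 higher and 1 lower (17.2% and 9.58%), and cluster 7 had 7 higher and 1 lower (23.2% and 6.48%). The basal cluster 3 had 8 higher and 1 lower (15.1% and 11.1%), cluster 11 had 7 higher and 1 lower (12.7% and 9.33%), the mitotic cluster 8 had 7 higher and 1 lower (10.8% and 9.58%), and cluster 9 had 6 higher and 1 lower (9.12% and 9.76%). Cluster 5 had the fewest higher, with 2 higher and 2 lower (12.7% and 7.47%). The share of the keratins that was higher lay above the share of all genes in each of the 10 clusters. Free RNA in stromal cells gave like counts, 5 higher and 2 lower in cluster 0 and 5 higher and 1 lower in stromal cluster 10. The median log2 ratio of the keratins there was 1.15 in both, beside -0.15 and -0.09 over all genes. With the free RNA of cluster 0 subtracted, 95 of the 100 epithelial calls stayed the same. The lower ones were *Krt78* in 9 clusters and *Krt8* in clusters 2 and 5. Once free RNA was subtracted, *Krt78* was no longer lower in clusters 3 (1.06) and 11 (-0.79).

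**Figure D2:**
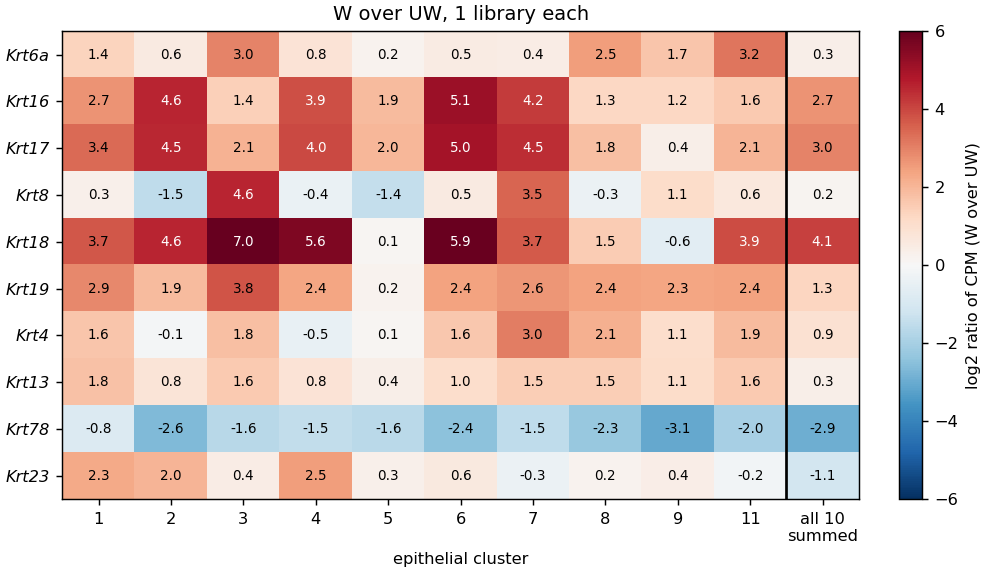
Log2 ratio of CPM, W over UW, for each keratin (rows) in each epithelial cluster and in the sum of all 10 (right of the black line), 1 library for each condition. *Krt16* is above 1 in all 10 clusters and *Krt78* below 0 in all 10, while *Krt8* runs from -1.5 in cluster 2 to 4.6 in cluster 3.

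Among the stress keratins, *Krt16* was higher in W in 10 of 10 clusters (9 once free RNA was subtracted, cluster 9 then being at 0.99) and *Krt17* in 9, while *Krt6a* passed a log2 ratio of 1 in 5. The type II keratin *Krt6a* was already high in UW, at 6638 CPM in cluster 2, 5603 CPM in cluster 4 and 5089 CPM in cluster 6, and low in the proliferating and basal clusters, at 210 CPM in cluster 9, 339 CPM in cluster 11, 366 CPM in cluster 8 and 518 CPM in cluster 3. In W these last 4 clusters stood at 663, 3111, 2060 and 4074 CPM, which are log2 ratios of 1.66, 3.2, 2.49 and 2.98. In UW, the thinned share of cluster 9 was not above that of stromal cells, 57.2% beside 60.3%, although its level was above their 181 CPM and 4.41% of its cells, beside 0.633%, lay above the stromal 99th percentile of 7 UMIs. With the free RNA subtracted, its log2 ratio was 2.86. In clusters 2, 4, 5, 6 and 7 the ratio lay between 0.21 and 0.84. The level of *Krt6a* thus ranged 31.7-fold between the highest and the lowest epithelial cluster in UW, where no neighbours in the order overlapped, and 15.2-fold in W, the lowest being cluster 9, whose UW level is close to that of free RNA.

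Its type I partner *Krt16* had its largest ratios in clusters 2, 6 and 7, where those of *Krt6a* were at most 0.56. In UW it was lowest in the superficial clusters 7 (90.3 CPM) and 6 (116 CPM) and highest in the suprabasal cluster 1 (1402 CPM). In W it reached 12893 CPM in cluster 4, 9340 CPM in cluster 2 and 9164 CPM in cluster 1, and 3996 CPM in cluster 6, a 34.5-fold higher level than in UW. The UW levels of clusters 6 and 7 stood beside 76.2 CPM in stromal cells, and their thinned shares of 32.5% and 28.8% beside 31.0%, so the share of cells with a UMI was about that of free RNA. More *Krt16* than that was in a minority of cells, 12% of cluster 6 and 7.02% of cluster 7 lying above the stromal 99th percentile of 4 UMIs, beside 0.675% of stromal cells. The ratio was smallest in cluster 9, from 335 to 787 CPM (log2 1.23, interval 1.17 to 1.29). With at least 10 UMIs taken as a cut, both *Krt6a* and *Krt16* were found in 93 of 1533 cells of cluster 6 in UW and in 549 of 652 in W. In cluster 9 both were found in 6 of 521 cells in UW and 315 of 956 in W. Stromal cluster 0 had both in 1 of 2369 UW and 55 of 1719 W cells. Of its W cells, 8.61% passed this cut for *Krt6a* and 11.5% for *Krt16*. The stromal 99th percentile in W was 17 *Krt6a* UMIs, and 19.5% of cluster 9 lay above it. Of the W cells with 10 or more *Krt16* UMIs, most had 10 or more of *Krt6a*, the share being 96.9% in cluster 3, 97.1% in cluster 11, 95.5% in cluster 8 and 62.9% in cluster 9. Of all W cells of these clusters, 94%, 95.6%, 91.1% and 45.1% passed the *Krt6a* cut, so most of these shares are near those of the whole cluster. In UW cluster 3 that share was 46.6%, against 27.4% of all its cells, and in UW cluster 9 it was 8.33%, against 2.69%. The cut was the same at the median depths of cluster 9, 13944 UMIs in UW and 24009 in W. With each cell thinned to 5000 UMIs, 151 of its 261 UW cells with a *Krt16* UMI and 694 of its 819 W cells also had one of *Krt6a*, beside 57.2% and 84.0% of all thinned cells of the cluster with a *Krt6a* UMI. In stromal cluster 0 this held for 444 of 719 UW and 1064 of 1365 W cells. A *Krt6a* UMI was found in 60.3% and 77.0% of all thinned stromal cells, so these 1-UMI shares lie near free RNA.

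Free RNA has to be read beside these shares. In stromal cluster 0, *Krt6a* UMIs reached 86.5% of the cells in UW and 98.6% in W, and *Krt16* UMIs 57.7% and 99.2%, at means of 2.17 and 5.73 UMIs a cell for *Krt6a* and 0.915 and 6.46 for *Krt16*. The median depth of these stromal cells was 11853 UMIs in UW and 17588 in W. A share of cells with 1 UMI of *Krt6a* or *Krt16* therefore says little in W. The 99th percentile of stromal W cells was 15 *Krt16* UMIs, and 97.9% of cluster 4, 71.5% of cluster 6 and 31.9% of cluster 9 lay above it.

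*Krt17*, the third stress keratin, followed another map. In UW it was concentrated in cluster 9 (1388 CPM) and cluster 5 (627 CPM), with 253 CPM in the mitotic cluster 8 and 10.8 to 80.9 CPM in clusters 1, 2, 3, 4, 6 and 7. In W cluster 5 was highest at 2454 CPM, cluster 9 followed at 1787 CPM, cluster 8 at 887 CPM, and no epithelial cluster was under 257 CPM. Cluster 9 was the only one of the 10 with a log2 ratio under 1, at 0.36 (0.33 to 0.39), although the share of its cells with at least 10 *Krt17* UMIs was 51.6% in UW (47.2% to 56.0%) and 88.2% in W (86.0% to 90.2%), at median depths of 13944 and 24009 UMIs. In cluster 5 that share was 34.3% in UW and 83.4% in W. The largest ratios, 32.0-fold in cluster 6 and 23.0-fold in cluster 2, were those of clusters whose UW level was close to the 11.4 CPM of stromal cluster 0. In UW, thinned to 5000 UMIs a cell, *Krt17* was found in 4.87% of cluster 6 and 4.16% of cluster 7, below the 5.61% of stromal cells, so no share of cells with *Krt17* beyond free RNA was detectable at this depth. In the cells as deposited, 1.57% of cluster 6 and 0.728% of cluster 7 lay above the stromal 99th percentile of 2 UMIs, beside 0.169% of stromal cells. In W, 43.5% of cluster 6, 49.3% of cluster 7 and 30.2% of stromal cluster 0 had a thinned UMI, and 19.3% and 24.1% of the cells of clusters 6 and 7 lay above the stromal 99th percentile of 5 UMIs. Of the last bases of the *Krt17* transcript, 3.52% of the windows of 60 bases are also found in *Krt14*, so a small part of its reads could be ambiguous. The other members shared at most 0.587% of such windows with any gene.

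The simple keratin *Krt18* was at its highest level in cluster 9 in UW and in the basal cluster 3 in W. In UW it had its highest level in cluster 9 (45.4 CPM), followed by cluster 8 (9.38 CPM) and cluster 5 (7.80 CPM), and the intervals of these last 2 overlap. Cluster 3 stood at 2.29 CPM from 75 UMIs. In W cluster 3 had 6704 *Krt18* UMIs and 297 CPM, 130-fold higher (log2 7.02, 6.69 to 7.37), and clusters 11 (33.4 CPM), 9 (29.6 CPM) and 8 (26.9 CPM) followed far below, with overlapping intervals between neighbours. Cluster 9 went the other way, its W level lying below its UW level by a log2 ratio of -0.62 (-0.80 to -0.43).

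Within cluster 3, a minority of the cells carried most of the *Krt18* RNA. At least 1 *Krt18* UMI was found in 61 of 1789 UW cells (3.41%) and 487 of 885 W cells (55.0%), at median depths of 18682 and 23906 UMIs, and in 0.338% of UW and 5.58% of W stromal cells. At least 3 UMIs were found in 3 UW and 295 W cells, and at least 10 in 0 UW and 173 W cells (19.5%), and the highest W cell had 187. The 173 cells held 87.1% of the *Krt18* UMIs of the cluster. For the UW library, 0 of 1789 cells allows a share of up to 0.206% by the exact interval. After thinning each cell to 5000 UMIs the shares with a *Krt18* UMI were 1.05% in UW and 36.4% in W, against 0.129% and 1.70% in stromal cells. The proliferating clusters had fewer such cells in W, with 3 or more UMIs in 150 of 1332 cells of cluster 8, 68 of 562 of cluster 11 and 84 of 956 of cluster 9, where UW had 32 of 521. At equal depth the order in cluster 9 was the other way, a thinned *Krt18* UMI being found in 17.2% of UW and 10.7% of W cells. In the suprabasal and superficial clusters 1, 2, 4, 6 and 7 the UW level of *Krt18* lay between 0.253 and 0.427 CPM, beside 0.281 CPM in stromal cells, and the W level between 5.02 and 15.4 CPM, beside 3.36 CPM. Their ratios, up to 60.9-fold in cluster 6, thus start from a level at which free RNA and expression cannot be told apart.

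**Figure D3:**
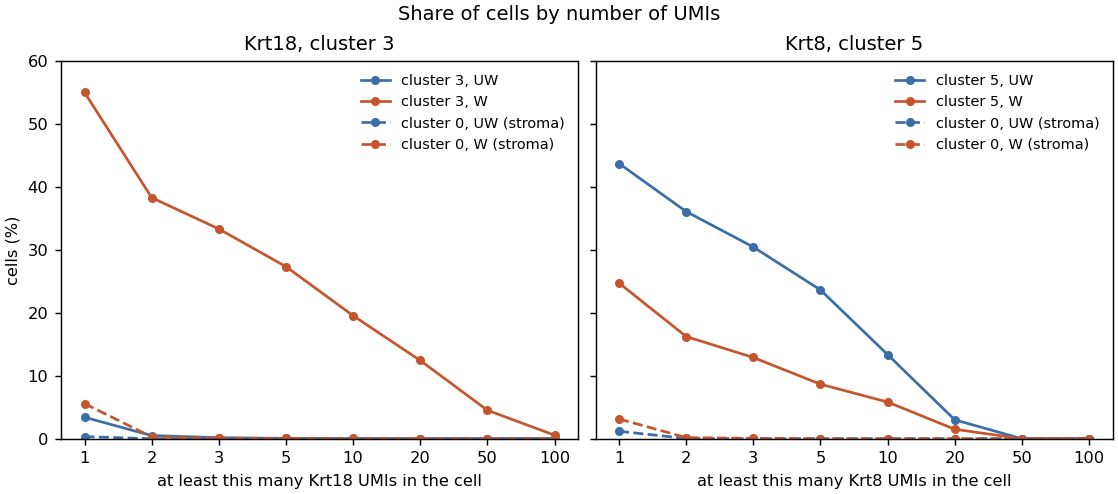
Share of cells (vertical axis, %) with at least the number of UMIs on the horizontal axis, for *Krt18* in cluster 3 (left) and *Krt8* in cluster 5 (right), UW in blue and W in orange, with stromal cluster 0 as dashed lines. At 10 or more UMIs, *Krt18* is found in 19.5% of W and 0% of UW cells of cluster 3, and *Krt8* in 13.4% of UW and 5.83% of W cells of cluster 5.

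*Krt8*, the type II partner of *Krt18* in simple epithelia, was at 16.9 CPM in UW and 18.8 CPM in W over all epithelial clusters, but this near equality was the sum of opposite differences. In UW cluster 5 held the highest level, 133 CPM (129 to 138), and no other cluster passed 15.8 CPM. In W cluster 5 stood at 49.5 CPM (47.3 to 51.9) and cluster 3 at 46.2 CPM (43.4 to 49), which overlap. Cluster 3 had been at 1.95 CPM in UW, a 23.6-fold difference, and cluster 7 stood at 1.71 CPM in UW and 19.2 CPM in W, an 11.2-fold difference. Both UW levels lie near the 1.02 CPM of stromal cells, with thinned shares of 0.761% and 0.804% beside 0.431%, the intervals overlapping. The log2 ratio was -1.43 (-1.51 to -1.35) in cluster 5 and -1.54 (-1.82 to -1.27) in cluster 2. At least 3 *Krt8* UMIs were found in 335 of 1100 UW cells (30.5%) and 155 of 1201 W cells (12.9%) of cluster 5, and after thinning the shares with a UMI were 29.1% and 12.6%, against 0.431% and 1.05% in stromal cells.

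How many *Krt8* cells of clusters 3 and 5 held *Krt18* beside it has to be read against *Krt18* in all their cells. In W cluster 3, 62 of the 66 cells with at least 3 *Krt8* UMIs also had 3 or more of *Krt18* (93.9%), although these were 21.0% of the *Krt18* cells, and 36 of the 66 had 3 or more of *Krt19* (54.5%), against 19.3% of the whole cluster. In UW cluster 5, 8 of the 335 *Krt8* cells had 3 or more *Krt18* UMIs (2.39%), while 329 had 3 or more *Krt19* UMIs (98.2%). In W cluster 5 the numbers were 15 and 142 of 155 cells. Of all cells, 33.3% of W cluster 3 and 2.27% of UW and 2.08% of W cluster 5 had 3 or more *Krt18* UMIs, so in UW cluster 5 the *Krt8* cells held *Krt18* at about the share of the whole cluster. In W cluster 7 all 27 cells with 3 or more *Krt8* UMIs had as many of *Krt19* and 0 had as many of *Krt18*. These shares have to be read beside those of all cells, since 69.5% of UW and 70.9% of W cells of cluster 5, and 60.6% of W cells of cluster 7, passed the same cut for *Krt19*.

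*Krt19*, the smallest keratin, was highest in cluster 5 in both libraries, at 1489 CPM in UW and 1727 CPM in W, a log2 ratio of 0.21. Everywhere else it was higher in W, by log2 ratios from 1.89 in cluster 2 to 3.77 in cluster 3. The superficial clusters 7 and 6 came next in both libraries, with 171 and 148 CPM in UW and 1058 and 786 CPM in W. The basal and proliferating clusters 3, 8, 9 and 11 had 7.38 to 9.72 CPM in UW, beside 9.25 CPM in stromal cells, and thinned shares of 3.73% to 5.15% beside 4.4%, so no *Krt19* clearly beyond free RNA was detectable there in UW. In W they had 39.0 to 102 CPM, beside 29.3 CPM in stromal cells, and 14.9% of cluster 3 and 6.41% to 7.28% of clusters 8, 9 and 11 passed the stromal 99th percentile of 3 UMIs.

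*Krt4*, the type II keratin of the conjunctival pair, was a gene of cluster 5. Its level there was 3016 CPM in UW and 3291 CPM in W (log2 0.13), against 270 CPM in cluster 2 and 616 CPM in cluster 7, the next highest of each library, and the share of cells with 10 or more UMIs was 75.8% in UW and 80.7% in W. The ratio in other clusters ran from -0.46 in cluster 4 (142 to 103 CPM) to 3.05 in cluster 7, from 74.4 to 616 CPM. In cluster 9 *Krt4* stood at 136 CPM in UW and 285 CPM in W, and cells with at least 10 UMIs made up 5.37% and 25.3% of it. In that cluster, 24 of the 28 UW cells and 224 of the 242 W cells with at least 10 *Krt4* UMIs also had at least 10 of *Krt17*, as did 51.6% and 88.2% of all its cells. Clusters 3 and 11 had thinned *Krt4* shares below the stromal one in UW, 6.50% and 5.50% beside 7.20%.

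*Krt13*, the type I partner, reached much further into the corneal layers than *Krt4*. In UW it was highest in cluster 6 (5461 CPM), followed by clusters 2 (4631 CPM), 5 (4471 CPM), 7 (3764 CPM) and 4 (1834 CPM), and it was at 97.3 to 285 CPM in the other 5. In W its level lay above that of UW in each of the 10 clusters, with 11220 CPM in cluster 6 and 10350 CPM in cluster 7, and log2 ratios from 0.36 in cluster 5 to 1.78 in cluster 1. In cluster 5, 82.3% of the UW and 93.5% of the W cells with at least 10 *Krt4* UMIs had at least 10 of *Krt13*, against 70.2% and 86.3% of all its cells. In cluster 7 all 67 UW and all 118 W cells with that much *Krt4* passed the *Krt13* cut, as did 90.3% and 95.5% of all its cells. Clusters 3, 8 and 11 had thinned *Krt13* shares of 36.9% to 38.5% in UW, below the 43.9% of stromal cells, and of 55.9% to 62.1% in W, above the 52.2% of stromal cells.

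*Krt78* shares the superficial map of *Krt13* and differed from it in direction. In UW it stood at 374 CPM in cluster 6 (368 to 380), 223 CPM in cluster 7 and 141 CPM in cluster 2. In W the same clusters stood at 68.6 CPM (64.4 to 72.9), 76.8 CPM (71.9 to 81.9) and 22.7 CPM (20.8 to 24.8), log2 ratios of -2.45, -1.54 and -2.63. Cells of cluster 6 with more than 1 *Krt78* UMI made up 92.4% in UW and 28.5% in W, at median depths of 26510 and 20913 UMIs, and the thinned shares with a UMI were 78.7% and 23.4%, beside 2.98% and 0.234% in stromal cells. In the same clusters 6 and 7, *Krt13* in W was 2.05-fold and 2.75-fold its UW level. The basal and proliferating clusters 3, 8, 9 and 11 had *Krt78* at 4.03 to 5.12 CPM in UW, not above the 5.56 CPM of stromal cells, and thinned shares of 1.98% to 2.55%, so no *Krt78* beyond free RNA was detectable there, and their ratios of -3.09 to -1.65 lie beside one of -3.10 in stromal cells. With the free RNA of each library subtracted, the ratio of cluster 3 turned to 1.06. Cluster 1 was at a like level, 5.77 CPM and a thinned share of 2.57%. In the 5 clusters above free RNA in UW, which were 2, 4, 5, 6 and 7, the log2 ratio ran from -2.63 to -1.46.

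**Figure D4:**
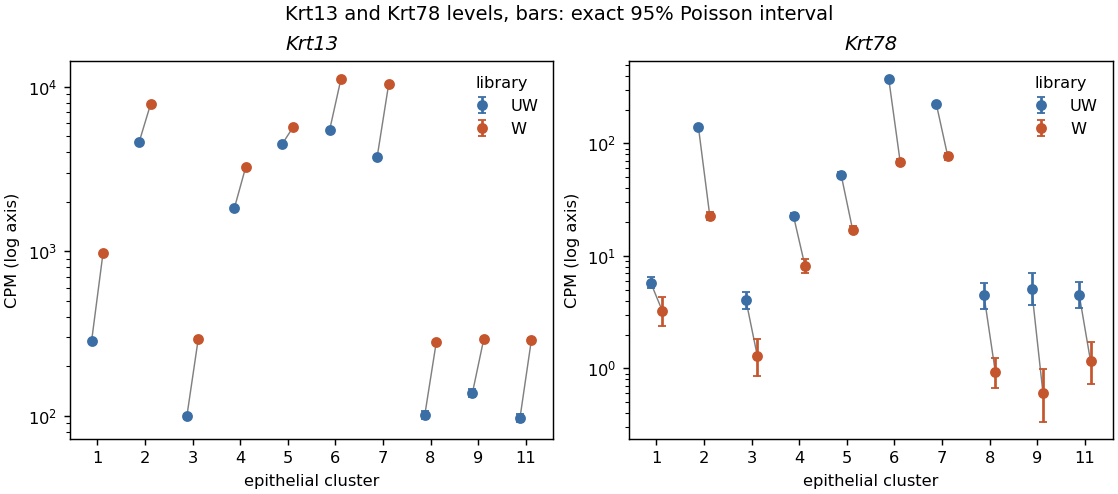
Levels of *Krt13* (left) and *Krt78* (right) in CPM on a log axis in the 10 epithelial clusters, UW in blue and W in orange, with bars for the exact 95% Poisson interval, which is narrower than the point for most. Lines join the 2 libraries of a cluster, and each *Krt13* line goes up to W while each *Krt78* line goes down.

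The bases before the start of *Krt13* and *Krt78* are shown because the 2 genes are highest in the same superficial clusters and differ between W and UW in opposite directions. They are the 250 bases upstream of the annotated start in RefSeq (GRCm38.p6, both on the minus strand, printed 5' to 3'), at chr11:100121567-100121816 and chr15:101954288-101954537. Capitals mark matches, on either strand, to TGANTCA (a loose form of the AP-1 site TGACTCA or TGAGTCA, held by 6.75% of 32851 promoter windows of this length) and to ATAAAA (held by 17.0%, a motif picked after these promoters were read). GGGCGG, the GC box, held by 32.7%, was searched too and has no match in either.
Krt13: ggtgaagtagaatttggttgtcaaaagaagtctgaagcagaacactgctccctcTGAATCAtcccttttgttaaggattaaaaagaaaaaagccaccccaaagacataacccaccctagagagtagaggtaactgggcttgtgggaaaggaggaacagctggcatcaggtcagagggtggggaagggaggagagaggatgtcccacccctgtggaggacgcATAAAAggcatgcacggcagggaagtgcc
Krt78: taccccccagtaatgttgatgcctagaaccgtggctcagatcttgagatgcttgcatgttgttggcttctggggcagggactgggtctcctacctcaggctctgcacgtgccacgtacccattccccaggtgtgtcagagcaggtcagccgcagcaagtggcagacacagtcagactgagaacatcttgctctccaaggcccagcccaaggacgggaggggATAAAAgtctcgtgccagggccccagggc
*Krt13* has 1 TGANTCA match, which is TGAATCA and not the usual AP-1 site, and 1 ATAAAA, and *Krt78* has 1 ATAAAA and 0 TGANTCA matches. These are matches of letters only. Of the 10 genes, 5 had a promoter entry.

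*Krt23* was highest in cluster 7 and, in UW, largely restricted to it. In UW cluster 7 held 410 CPM and 90.7% of all *Krt23* UMIs of the library in 9.19% of its cells, and no other cluster passed 17.1 CPM. In W cluster 7 stood at 322 CPM, a log2 ratio of -0.35 (-0.40 to -0.30), and held 68.9% of the *Krt23* UMIs, cluster 5 having 11.9% and cluster 6 having 6.86%, with a UMI in 67.0% of its cells against 67.4% in UW. The pooled log2 ratio of -1.08 was thus lower than that of any of the 10 clusters, of which -0.35 was the lowest. Cluster 7 made up 1511 of the 13501 epithelial cells in UW and 528 of the 8507 in W. *Krt23* passed a log2 ratio of 1 in clusters 1, 2 and 4, but from 0.998 to 1.32 CPM in UW and to no more than 6.66 CPM in W. These UW levels lay below the 1.58 CPM of stromal cluster 0.

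The ratios were also computed at equal cluster shares, because the libraries hold the clusters in unequal numbers. With the cluster levels of each library weighted by the UW shares of UMIs, the log2 ratio was 0.83 for *Krt6a*, 3.15 for *Krt16*, 2.23 for *Krt17*, 3.93 for *Krt18*, 1.41 for *Krt19*, 0.49 for *Krt4* and 0.96 for *Krt13*. It was -2.13 for *Krt78*, -0.19 for *Krt23* and -0.15 for *Krt8*. The calls stayed as they were for 9 of the 10, *Krt23* being the exception. At the W shares *Krt18* was at 2.40, *Krt17* at 1.56, *Krt16* at 2.55 and *Krt19* at 0.82. *Krt16*, *Krt17* and *Krt18* thus passed 1 under each weighting and *Krt78* passed -1, but the ratios of *Krt18* and *Krt17* depended on the weights, and at the W shares that of *Krt16* was the largest.

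**Figure D5:**
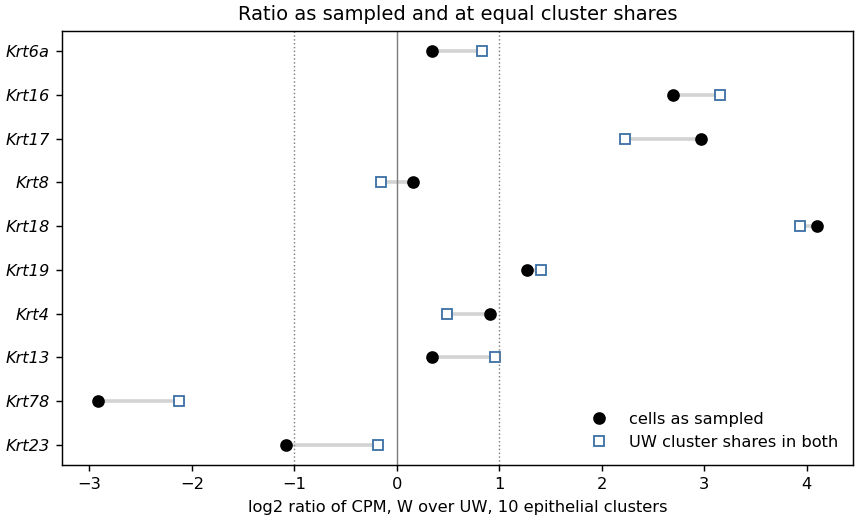
Log2 ratio of CPM, W over UW, over the 10 epithelial clusters, for each keratin with the cells as sampled (filled circles) and with each cluster weighted by its UW share in both libraries (open squares). The dotted lines mark -1 and 1, and *Krt23* moves from -1.08 to -0.19 while the calls of the other 9 keep their side.

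The distribution of a gene's UMIs over clusters gives the same picture from the side of the gene. Cluster 5 held 6.69% of UW and 9.67% of W cells, and 68.6% and 73.9% of the *Krt4* UMIs, 61.9% and 54.8% of those of *Krt19*, 63.6% and 38.6% of those of *Krt8* and 42.2% and 39.1% of those of *Krt17*. Cluster 9 held a further 26.4% and 19.6% of *Krt17*. For *Krt18* the leading cluster differed between the libraries, cluster 9 with 37.6% in UW and cluster 3 with 61.8% in W, from 7.13% of the W cells. Cluster 6 held 45.1% of *Krt78* in UW and 29.3% in W.

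Likeness between genes was taken as Pearson's r of log2(CPM + 1) over 20 points, the 10 epithelial clusters in both libraries, among 4405 genes. The points share libraries, depth and cell composition, so r is a description with no test. Among the members *Krt19* was most like *Krt13* (r = 0.91) and *Krt4* (0.86), and *Krt8* most like *Krt4* (0.77) and less like *Krt18* (0.41). Among the stress keratins r was 0.43 for *Krt6a* with *Krt16*, 0.55 for *Krt16* with *Krt17* and -0.21 for *Krt6a* with *Krt17*, and the lowest r of any pair of members was that of *Krt18* with *Krt78* (-0.62). The genes nearest to each member, over the same points, were *Chmp2a* for *Krt6a* (0.93), *Arf6* for *Krt16* (0.95), *Mgst1* for *Krt17* (0.93) and *Ctsh* for *Krt8* (0.79). For the others they were *Ddit4* for *Krt18* (0.94), *Upp1* for *Krt19* (0.97), *Il1rn* for *Krt4* (0.93), *Ceacam1* for *Krt13* (0.97), *Epb41* for *Krt78* (0.99) and *Frk* for *Krt23* (0.96).

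The other keratins of the table give the setting. Of 17 other type I keratins that could be compared over all epithelial clusters, 7 were higher and 2 lower in W (21.8% and 8.77% of all genes), with a median log2 ratio of 0.57. Of the 7, all but *Krt14* stood at 1.13 CPM or less in both libraries. Of 15 other type II keratins, 2 were higher and 3 lower, with a median of -0.11. *Krt14*, the basal type I keratin, stood at 514 CPM in UW and 11192 CPM in W (log2 4.44), a larger ratio than that of any of the 10, while its partner *Krt5* stood at 6890 and 6394 CPM. The corneal keratin *Krt12* stood at 26753 CPM in UW and 12352 CPM in W (-1.11), and *Krt6b*, the close relative of *Krt6a*, at 4996 and 3355 CPM (-0.57). *Krt15* stood at 4846 and 7186 CPM (0.57), *Krt7* at 152 and 190 CPM (0.32) and *Krt10* at 27.9 and 39.6 CPM (0.51). *Krt80* stood at 334 and 124 CPM (-1.43), and at 888 and 598 CPM in cluster 7, where it was highest in both libraries. Of 12 genes for proteins that anchor keratin filaments, 0 were higher and 2 lower, with a median of -0.41. The 2 were desmoplakin, *Dsp*, with 1753 CPM in UW and 689 CPM in W, and periplakin, *Ppl*, with 1175 and 524 CPM. The ratios of these other keratins and linkers are of the cells as sampled and were not taken at equal cluster shares.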

How the data were processed

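Corneal cells of unwounded (UW) and wounded (W) mice were sequenced in 1 droplet library for each condition. The authors counted UMIs for each gene and cell with Cell Ranger 3.1.0 and deposited these counts without normalization, with each cell's library, cluster number and doublet calls. The submitters' processing notes name the mm9 build and the paper the mm10 reference. The labels name the v3 kit and the paper the V2 kit. Per the paper, a cell passed with 500 to 8000 genes and mitochondrial UMIs of no more than 10%, doublets were taken out, and clusters were made after the libraries were integrated. The doublet columns still name 305 UW and 164 W cells, which were kept and left out in an alternative.

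Within each cluster and library, a gene's counts were added up over cells and divided by all UMIs of these cells, in CPM (counts per 1000000), with exact Poisson 95% intervals, in the clusters led by the epithelium marker list. That clusters 5 and 7 are counted as epithelial is a judgement, and they are left out in an alternative. Shares of cells have Clopper-Pearson 95% intervals, and a sum of 0 would be read as allowing 3 counts. Genes with at least 20 counts over both libraries were compared, and "higher" and "lower" mean a log2 ratio of at least 1 or at most -1. For thinned shares 5000 UMIs were drawn from each cell, which leaves out 450 UW and 1153 W cells. The computation was tested on simulated data for cluster 3, with 4 sets of 50 genes changed by log2 ratios of 1.5 or 3 in either direction. Each set was called right in 100%, and 12260 unchanged genes in 99.1%. The simulated counts held counting error only, and the changed genes had at least 50 UW counts. The rates thus check the arithmetic and say nothing of the spread between mice or libraries. Python 3.11.15 with numpy 2.4.6, pandas 2.3.3 and scipy 1.17.1 was used, and edgeR 4.0.16 and DESeq2 1.42.0 in R 4.3.3 gave scaling factors only.

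All 10 keratins are named, with the 3 genes most like each by r among genes at 50 CPM or more (1 is printed for each), the leading genes of each cluster at 100 CPM or more, and from the lists of other keratins and linkers those the text gives. The keratins and the lists were chosen with earlier results of these data known. Cells with 10 or more *Krt18* or *Krt8* UMIs, and clusters 3 and 5 for them, were chosen after their values were seen. Gene positions are from GENCODE M21 (GRCm38).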

Additional observations from a re-analysis of the deposited data

Results flagged for a closer look

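*Krt8* was picked out because its W and UW levels differed in opposite directions between clusters. Its log2 ratio was 4.56 in cluster 3, 3.49 in cluster 7 and 1.11 in cluster 9, and -1.54 in cluster 2 and -1.43 in cluster 5. With 1 library for each condition the difference between clusters was not tested.

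Some keratins were also seen outside the epithelial comparisons, in cluster 14 (leading genes *Cd74*, *H2-Eb1* and *H2-Aa*), which has 354 cells in W and no comparison with UW here. Its W cells held a mean of 24.2 *Krt6a* UMIs, beside 5.73 in stromal cluster 0 of the same library. The mean was 25.8 UMIs for *Krt16* beside 6.46, and 13.3 for *Krt13* beside 3. For *Krt8* it was 0.0734 UMIs beside 0.0337, and for *Krt78* 0.0480 beside 0.0122. A few cells carried these means. The median was 4 *Krt6a* UMIs (5 in stromal cells), and 36 of the 354 cells (10.2%) lay above the stromal 99th percentile for *Krt6a*, as many for *Krt16*, 26 for *Krt13*, 3 for *Krt8* and 1 for *Krt78*. The corneal keratin *Krt12* was higher there too, at a mean of 62.95 UMIs beside 13.89 in stromal cluster 0. For each *Krt12* UMI, cluster 14 held 0.385 *Krt6a* UMIs beside 0.412 in stromal cells, 0.409 of *Krt16* beside 0.465, and 0.211 of *Krt13* beside 0.216. For *Krt8* it was 0.00117 beside 0.00243, and for *Krt78* 0.000763 beside 0.00088. Relative to *Krt12*, none of these keratins was thus higher than in stromal cells. The source of the keratin UMIs in cluster 14 was not tested.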

How the results depend on the processing

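No paired analysis was possible because each condition is 1 library. Over the summed epithelial clusters, 4 keratins were higher in W, and 3 where at least 50 CPM in the mean of both libraries was asked, which leaves out *Krt18*, or with clusters weighted by W shares, *Krt19* being at 0.82. The other alternatives gave 4. The number lower was 2, but 1 with the mean over cells of CPM, with clusters weighted by UW or W shares, with the 50 CPM limit, and without clusters 5 and 7 (an alternative chosen after seeing the data), *Krt78* being the remaining one. Without those clusters the pooled log2 ratio of *Krt23* turned to 0.43. Of the 100 ratios of a keratin in a cluster, 100 kept their direction and 99 their call with TMM or DESeq2 factors, which shift the pooled log2 ratio by -0.22 and -0.23 and that of cluster 7 by -0.38 and -0.41. The call lost with both was *Krt13* in cluster 6, whose log2 ratio of 1.04 they shift by -0.16. A stricter filter of cells (1000 genes, 5% mitochondrial UMIs) and the mean over cells also gave 100 and 99, a denominator without keratin genes 100 and 100, and leaving out named doublets 98 and 100. Subtracting the free RNA seen in stromal cells in each cluster, added after seeing the data, kept 96 and 95. The 5 calls that differed were *Krt16* in cluster 9 (1.23 to 0.99), *Krt78* in clusters 3 and 11 (-1.97 to -0.79 in the latter) and *Krt23* in clusters 3 and 9 (to 1.13 and 1.21). It turned *Krt78* in cluster 3 from -1.65 to 1.06 and moved it in cluster 1 from -0.82 to -0.04, and raised low genes such as *Krt19* in cluster 3 (3.77 to 5.83). No alternative addresses the spread between mice, which were pooled, and an assignment of cells to mice by genotype was not used here.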

Other observations

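The *Krt18* cells of cluster 3 in W differed from their neighbours in other genes too. The 173 cells with 10 or more *Krt18* UMIs were set beside the 398 with none, a split made on a keratin after its values were seen, so what follows describes these cells and has no test. Their median depth was 30872 UMIs against 21338. The chemokine gene *Ppbp* stood at 1076 CPM in the *Krt18* cells and 27.6 CPM in the others, *Cxcl3* at 318 and 12.3 CPM, and *Hmga2* at 135 and 7.18 CPM. *Lamb3*, a laminin chain of the epithelial basement membrane, stood at 415 and 104 CPM. The other basal genes looked at differed less, *Itgb4* at 437 and 270 CPM and *Col17a1* at 1804 and 1451 CPM. *Dapl1* (93.9 and 690 CPM), *Stmn1* (20.2 and 141 CPM) and *Id1* (111 and 559 CPM) were lower. *Ppbp*, *Cxcl3*, *Hmga2*, *Dapl1*, *Stmn1* and *Id1* were picked from the 6 genes that differed most on each side of this same split. Among keratins *Krt8* stood at 157 CPM beside 4.82 and *Krt19* at 222 beside 43.7, whereas *Krt17* was lower, at 145 beside 448, and *Krt14* differed little, at 13873 beside 13612. Cells named as doublets numbered 4 of the 173 and 0 of the 398, and the part of doublets and depth in these values was not tested.

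In UW cluster 5, the 147 cells with 10 or more *Krt8* UMIs and the 619 with none had median depths of 26199 and 23019 UMIs. The lipoxygenase genes *Alox12e* (623 and 59.6 CPM) and *Alox15* (188 and 18.3 CPM) were higher in the *Krt8* cells, as were *Krt7* (888 and 299 CPM), *Krt19* (2504 and 945 CPM), *Krt4* (5325 and 2232 CPM) and *Krt13* (7160 and 3423 CPM). *Krt14* (186 and 840 CPM), *Krt12* (2181 and 7254 CPM) and *Fabp5* (132 and 888 CPM) were lower. *Alox12e*, *Alox15*, *Krt7*, *Krt14* and *Fabp5* were among the 6 genes that differed most on each side of this same split. Of the goblet cell markers, *Muc5ac* and *Spdef* were at 0 UMIs in both and *Agr2* was at 51.8 and 36.8 CPM. Cells named as doublets numbered 4 of the 147 and 26 of the 619. In W the 70 *Krt8* cells of cluster 5 held *Krt7* at 1274 CPM against 330 CPM in the 904 cells with none, and *Krt19* at 3101 against 1478 CPM. Their *Krt14* level was 4256 CPM against 11095 CPM, so both libraries had less *Krt14* in the *Krt8* cells, while *Krt12* was higher in those of W, at 3803 against 2174 CPM. Of these W cells 9 of the 70 and 35 of the 904 were named as doublets, and the part of doublets in these values was not tested.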
